A study of Drosophila melanogaster with 4 samples.

Results

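The Ras-EGFR feedback and output genes described here are 10 genes of Drosophila melanogaster, aos, sty, kek1, Mkp3, Spred, pnt, edl, aop, cic and rho, among 17773 gene rows in each file. They were chosen by name as feedback inhibitors of Ras-ERK signalling and transcription factors downstream of it, and all 10 were found by their FlyBase symbols and passed the filter on low counts. RNA was sequenced from ovaries of adult females kept for 20 days at 29 °C, in 2 libraries per genotype that the series description calls biological replicates. The tumor genotype carried tj-GAL4, tubulinGal80ts, UAS-aPKCΔN and UAS-RasV12, that is, an atypical protein kinase C without its N-terminal part and an oncogenic Ras. The control genotype carried tj-GAL4 and tubulinGal80ts alone, so driver and repressor were shared by both groups. tj-GAL4 drives in the somatic cells of the ovary, of which the follicle epithelium is the largest part, and Gal80ts, a repressor of GAL4, is inactive at the temperature used. Tumor tissue was taken whole, while control tissue was limited to pre-vitellogenic follicles. A protease from Bacillus licheniformis separated the cells of both, and a filter step enriched those of the follicle epithelium.

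When a ligand activates the epidermal growth factor receptor Egfr, the signal passes through Ras, Raf and the kinase Dsor1 to rl, the fly ERK, which phosphorylates transcription factors in the nucleus. Some genes switched on by ERK encode inhibitors that act back on the pathway, so that their RNA is often read as a sign of its activity. In follicle cells the pathway is known for patterning the eggshell in response to the ligand Gurken from the oocyte. The name of the set needs 2 remarks. cic encodes an HMG-box repressor and not an ETS factor, and rho encodes an intramembrane protease that releases EGFR ligands and thus promotes signalling.

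The libraries held 47512735 and 42739528 estimated counts in tumor and 41248098 and 50971937 in control. Counts of Ras85D, which the RasV12 transgene carries, were 102550 and 109225 in tumor and 676 and 215 in control. Counts of aPKC were 54944 and 73836 in tumor and 1910 and 2482 in control. The files give 1 value per gene, so transgenic and endogenous transcripts were counted as one. The gene of the driver, tj, had 13558 and 11159 counts in tumor and 15641 and 21837 in control. Of 13 tested follicle cell markers, 4 rose and 3 fell, where the test given below called 23.4% of all genes higher and 21.2% lower. Markers of other cells were counted in the same way. Of 13 germline markers 11 fell, and their summed level in CPM, which are counts relative to the library total after TMM scaling, was 1281 to 1311 in tumor and 2112 to 2198 in control. Of 12 hemocyte markers 7 rose and none fell by their own counts, and their summed level was 729 to 980 CPM in tumor and 287 to 376 in control. Such sums weigh genes by level. Genes with high counts that were not called weigh heavily in them: piwi (27199 and 21959 in tumor) and tud (20071 and 20095 in tumor) for germline, crq (11113 and 10666 in control) for hemocytes. The median log2 fold change, tumor over control, was -3.38 for the germline list and 4.14 for the hemocyte list. Of 9 tested muscle markers 3 fell, or 1 when any 1 of the 4 libraries was left out, and their summed level was 212 to 312 CPM in tumor and 372 to 677 in control. osk, a germline marker, was at 0 in both tumor libraries, and sc, on the follicle cell list, was at 0 in all libraries, and both are named here after their values were seen. Division of reads between overlapping genes affects the counts of osk, of other markers and of the driven genes. Values that take account of it are given below. The part of these other cells in the results below was not tested. In such bulk tissue, fewer cells of a type and less RNA per cell cannot be told apart.

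Together the 10 genes held 0.366% and 0.370% of all counts in tumor, and 0.0976% and 0.112% in control. Of them 8 rose in tumor, none fell, and 2, Spred and cic, did not pass the test. The test was edgeR's quasi-likelihood test over all 9402 genes that passed the filter, and p-values were adjusted by Benjamini-Hochberg, with 0.05 as the threshold. In the same test 23.4% of all genes were higher and 21.2% lower in tumor. The median log2 fold change, tumor over control, was 2.04 over the 10 members and 0.02 over all genes tested. One of the 8, rho, is special for the reason given below. Its fold change, which rests on listed zeros in control, is counted in the median of the members. Levels in the next paragraphs are in this scaled CPM, where TMM is a factor per library that corrects for differences in composition, and errors of fold changes are standard errors (SE) from the fit, with n = 2 in each genotype.

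**Figure D1:**
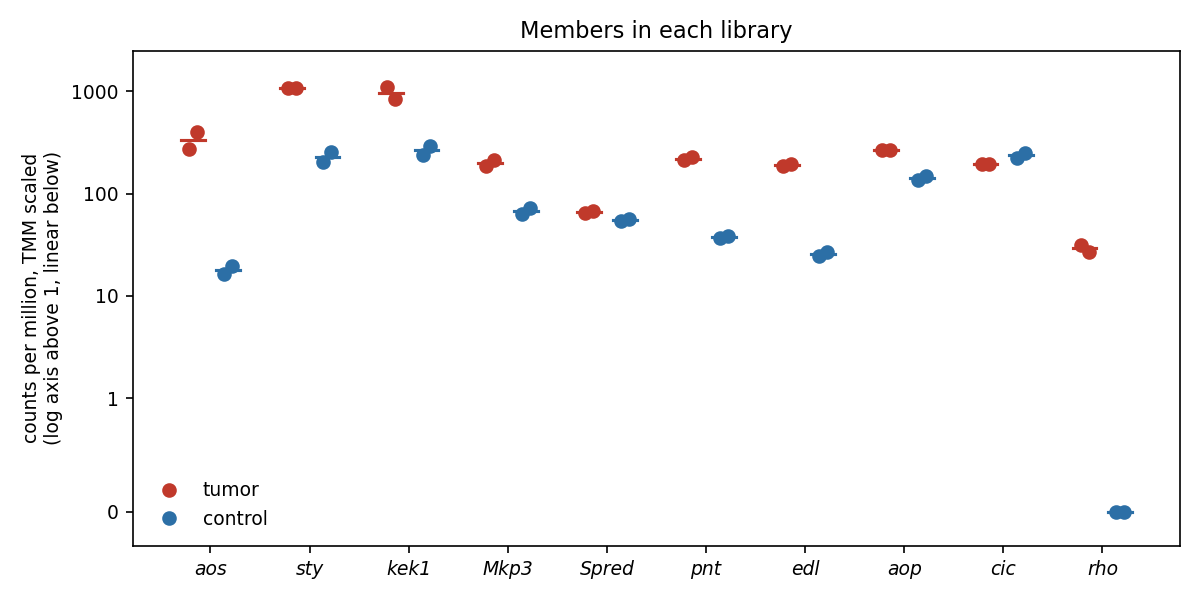
Level of each member in each library, in CPM after TMM scaling, on an axis that is logarithmic above 1 and linear below. Points are libraries (n = 2 per group) and short lines their means. For aos the tumor libraries sit at 275 and 400.1, against 16.3 and 19.7 in control, while for cic they sit at 196 and 195, against 224 and 253.

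Among the inhibitors, aos had the largest fold change. It encodes argos, a secreted protein that binds the ligand Spitz and keeps it from the receptor. aos had 275 and 400.1 CPM in tumor, against 16.3 and 19.7 in control. Both tumor libraries lay far above both control libraries, although the tumor libraries differed between themselves more than for most members. The log2 fold change was 4.23 ± 0.25, or 18.8-fold (edgeR adjusted p = 0.0017), and 563 of the 9402 genes tested had a larger one. Over the 4 pairs of a tumor and a control library, the log2 ratio of unscaled CPM ran from 3.89 to 4.73.

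sty encodes Sprouty, an intracellular inhibitor of signalling from receptor tyrosine kinases to Ras and Raf. It had 1085 and 1085 CPM in tumor, against 206 and 256 in control. The tumor libraries were nearly equal and the groups lay far apart. On the log2 scale it rose by 2.23 ± 0.14 (edgeR adjusted p = 0.0019).

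kek1 encodes Kekkon-1, a transmembrane protein with leucine-rich repeats that binds Egfr and inhibits it. It had 1095 and 834 CPM in tumor, against 240 and 294 in control. The groups did not overlap, and tumor 2 lay below tumor 1. Its log2 fold change was 1.85 ± 0.19 (edgeR adjusted p = 0.0046). Together sty and kek1 held 60.6% and 54.7% of the members' counts in tumor and 44.5% and 47.2% in control.

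Mkp3 encodes a phosphatase that removes the activating phosphates of ERK. It had 188 and 214 CPM in tumor, against 63.4 and 72.2 in control (log2 fold change 1.57 ± 0.11, edgeR adjusted p = 0.0025). Both tumor libraries lay above both control libraries. Spred encodes a relative of Sprouty with an EVH1 domain, which in mammals also restrains the step from Ras to Raf. It had 64.4 and 68.0 CPM in tumor, against 53.5 and 56.7 in control. The tumor libraries were the higher ones, but the difference of 0.26 ± 0.10 on the log2 scale did not pass the test (edgeR adjusted p = 0.10). The 5 inhibitors thus ranged from 1.20-fold for Spred to 18.8-fold for aos.

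Among the transcription regulators, the activator pnt and its partner gene edl had larger fold changes than the repressor genes aop and cic. pnt encodes Pointed, the ETS activator that ERK phosphorylates or induces. It had 212 and 226 CPM in tumor, against 37.2 and 38.1 in control. Libraries of a genotype lay close together, and the log2 fold change was 2.54 ± 0.08 (edgeR adjusted p = 0.0011). edl encodes a protein with a SAM domain and no ETS domain, which binds both Pointed and the repressor Yan. It had 186 and 193 CPM in tumor, against 24.4 and 26.6 in control. The groups lay far apart, with a rise of 2.89 ± 0.09 on the log2 scale (adjusted p = 0.0011 with edgeR).

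aop encodes Yan, the ETS repressor that ERK phosphorylation removes from the nucleus. It had 266 and 267 CPM in tumor, against 137 and 150 in control (log2 fold change 0.90 ± 0.08, edgeR adjusted p = 0.0039). The tumor libraries were the higher ones without overlap. cic encodes Capicua, a repressor whose hold on its targets ERK relieves. It had 196 and 195 CPM in tumor, against 224 and 253 in control. Here the tumor libraries were the lower ones, but the log2 fold change of -0.29 ± 0.09 did not pass the test (edgeR adjusted p = 0.067). The call for cic depended on the setting: it passed with DESeq2 (log2 fold change -0.30, adjusted p = 0.013), whereas scaling on ribosomal protein genes turned its sign (0.36, edgeR adjusted p = 0.065). These values are of RNA, whereas the known control of Yan and Capicua by ERK acts on the proteins, which were not measured.

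Ratios of genes within a library do not depend on how libraries are scaled to each other. Counts were divided by kilobases of annotated exon before taking them. The ratio of pnt to aop was 0.713 and 0.755 in tumor, against 0.243 and 0.227 in control. That of pnt to cic was 2.23 and 2.38 in tumor, against 0.341 and 0.310 in control. That of edl to aop was 2.62 and 2.71 in tumor, against 0.670 and 0.667 in control. In these ratios the libraries of a genotype lay close to each other and the genotypes apart. The ratio of sty to its relative Spred was 12.9 and 12.2 in tumor, against 2.94 and 3.46 in control. That of aos to sty was 0.487 and 0.711 in tumor, against 0.153 and 0.148 in control. The ratio of kek1 to Egfr, the receptor that its product binds, was 11.5 and 8.77 in tumor, against 0.932 and 1.08 in control. With 2 libraries per group an exact permutation test of such a ratio cannot reach the threshold, and none was made.

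**Figure D2:**
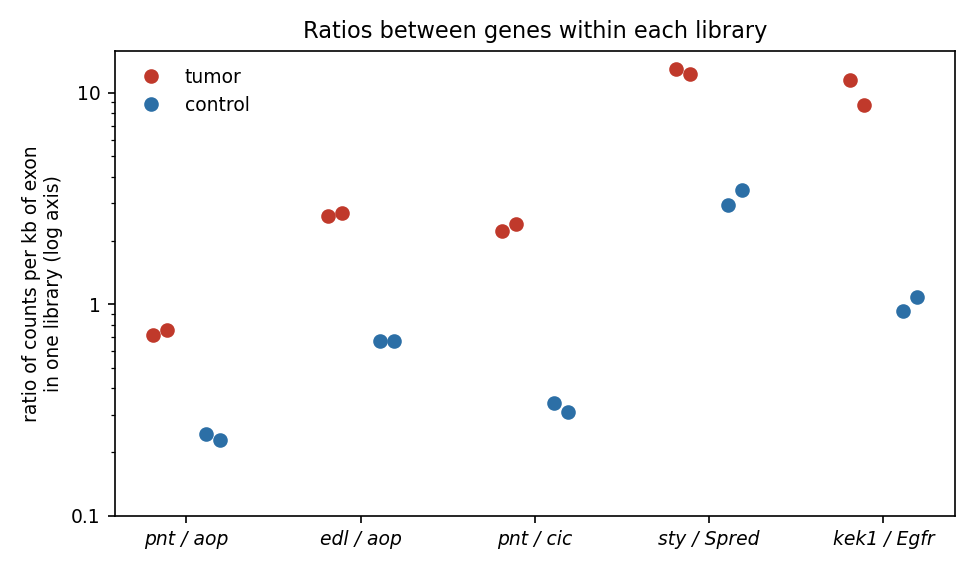
Ratio of 2 genes within each library, from counts per kilobase of annotated exon, on a log axis. Points are libraries (n = 2 per group). The ratio of pnt to aop was 0.713 and 0.755 in tumor, against 0.243 and 0.227 in control, and that of kek1 to Egfr 11.5 and 8.77 in tumor, against 0.932 and 1.08 in control.

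Levels were compared between members as CPM per kilobase of exon, with library totals as the only scaling. This takes all counts as coming from exons, although exons make up 10.2% (pnt) to 59.1% (kek1) of the deposited length of a member. In tumor the order of the mean levels was sty (207), kek1 (172), edl (135), aos (124), aop (50.5), Mkp3 (44.0), pnt (37.1), Spred (16.5), cic (16.1) and rho (10.1). In control it was kek1 (44.5), sty (40.96), aop (25.3), cic (18.3), edl (16.9), Mkp3 (13.8), Spred (12.8), aos (6.15), pnt (5.94) and rho (listed at 0). Neighbours whose libraries overlapped, and which therefore had no order, were edl with aos and Spred with cic in tumor, and kek1 with sty, cic with edl and aos with pnt in control. The order differed by deposited TPM, which uses the deposited length. There kek1 stood above sty in tumor (800 and 652, against 278 and 298) and in control (154 and 186, against 46.4 and 56.9). Spred stood above pnt in tumor (33.4 and 37.7, against 25.2 and 28.8). By mean CPM per kilobase of exon, the repressor gene aop stood above edl, aos and pnt in control. The repressor gene cic stood above aos and pnt there and overlapped with edl. In tumor by the same measure aop stood below edl and aos, and cic below edl, aos and pnt. By TPM, cic and pnt overlapped in tumor (25.3 and 26.9, against 25.2 and 28.8).

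A limit on single genes comes from the way they were counted. The deposited length of each member is 4000 bases more than its annotated span from first to last exon, as would come from a flank of 2000 bases at both ends. A target of this kind can hold exons of a neighbour, and reads from shared sequence are divided between targets. To set this beside the single values, the counts of a member and of all targets containing any of its exon sequence were summed, giving its locus sum. On locus sums 7 members rose and 1 fell, where 29.2% of all genes were higher and 28.4% lower. Among the driven genes, Ras85D rose by 7.75 ± 0.84 on the log2 scale on its own target and by 3.09 on its locus sum. For aPKC these values were 4.82 ± 0.23 and 3.32. Of the marker lists, 10 of 12 hemocyte markers rose and 2 fell on locus sums, and 9 of 13 germline markers fell. The germline marker osk, listed at 0 in both tumor libraries, fell by 1.96 on its locus sum. Coordinates below are those of the Ensembl annotation of BDGP6.54.

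sty and kek1 share no exon sequence with another target, so that their locus sums equal their own counts. sty lies at chromosome 3L, 3401153 to 3424935, on the minus strand, with 2 annotated transcripts and 5438 exon bases, and the microRNA gene mir-2282 inside its span was listed at 0 in all libraries. kek1 lies at chromosome 2L, 12817000 to 12822787, on the minus strand, and its 5788 exon bases fill its span. For edl (chromosome 2R, 18667527 to 18673536, minus strand) and cic (chromosome 3R, 20252770 to 20303942, plus strand), 81.7% and 84.2% of the exon bases lie outside other targets. The shared bases of both are 3′ untranslated sequence. Their locus sums changed on the log2 scale by 2.92 ± 0.09 (edgeR adjusted p = 7.3e-05) and -0.28 ± 0.08 (edgeR adjusted p = 0.027). The lower level of cic thus passed the test on locus sums and not on its own count, with an effect of the same size. Transposable elements cover 11.6% of the target of cic and none of those of the other members.

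aos (chromosome 3L, 16470386 to 16483650, minus strand) lies wholly inside the target of CG33158. That gene had 223 and 113 estimated counts in tumor and 187 and 308 in control, beside 13262 and 18012 counts of aos in tumor and 655 and 960 in control. aos thus held 98.3% and 99.4% of its locus sum in tumor, against 77.8% and 75.7% in control. The locus sum of aos rose by 3.86 ± 0.22 on the log2 scale (adjusted p = 2.7e-04 with edgeR).

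pnt (chromosome 3R, 23290231 to 23346167, minus strand) shares 29.9% of its exon bases, with 1134 bases of 3′ untranslated and 692 of coding sequence, with the target of bb8. Counts of bb8 were 6975 and 7043 in tumor and 810 and 1027 in control, so that they were high in the same libraries as those of pnt. PolE1, whose target holds 40 bases of 5′ untranslated sequence of pnt, had 1817 and 2243 counts in tumor and 2894 and 3138 in control. The locus sum of pnt, which holds all 3, rose by 1.71 ± 0.08 (edgeR adjusted p = 1.7e-04). Own counts of pnt were 53.9% and 52.3% of it in tumor, against 28.7% and 30.9% in control. The target of PolE1 holds only 0.65% of the exon bases of pnt, but all of its counts enter this sum. In control those counts exceeded pnt's own 1495 and 1861. Whether the smaller rise of the sum comes from divided reads of pnt was not tested.

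Mkp3 (chromosome 3L, 19066155 to 19086426, minus strand) shares 1997 bases of 3′ untranslated sequence, 42.2% of its exons, with the target of Sfxn2. Sfxn2, which encodes a sideroflexin, was listed at 0 in both tumor libraries and at 1558 and 1974 in control. The locus sum of Mkp3 was 9086 and 9645 in tumor and 4107 and 5495 in control. It rose by 0.91 ± 0.10 (edgeR adjusted p = 0.0012), less than Mkp3's own 1.57.

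aop (chromosome 2L, 2156484 to 2178754, minus strand) shares 41.2% of its exon bases with the target of CG15382 and 16.6% with that of AIF, which encodes a mitochondrial flavoprotein. CG15382 had 7119 and 6284 counts in tumor and 3672 and 4761 in control, and AIF 860 and 668 in tumor and 1889 and 1776 in control. The locus sum of aop rose by 0.61 ± 0.07 (edgeR adjusted p = 0.0014). Own counts of aop were 61.7% and 63.4% of it in tumor, against 49.7% and 52.8% in control. The ratios and levels of pnt and aop given above rest on own counts alone. Spred (chromosome 2R, 14759646 to 14769423, minus strand) has exons in 4 other targets, and 40.7% of its exon bases lie outside them. On the log2 scale its locus sum differed by 0.03 ± 0.06 (edgeR adjusted p = 0.68).

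rho (chromosome 3L, 1463811 to 1468944, plus strand) lies wholly inside the target of Ptp61F, a gene for a protein tyrosine phosphatase. rho was listed at 1532 and 1213 estimated counts in tumor and at 0 in both control libraries. Ptp61F had 3270 and 3375 counts in tumor and 3970 and 5178 in control. Their locus sum was 4801 and 4588 in tumor and 3970 and 5178 in control, and differed by -0.03 ± 0.08 on the log2 scale (adjusted p = 0.81 with edgeR). The locus as a whole therefore showed no change past the test, while rho's share of it was 31.9% and 26.4% in tumor and 0% in control. Listed zeros also stood at genes such as the ERK kinase gene Dsor1 in tumor, so no fold change is given for rho, and without it 7 members rose.

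**Figure D3:**
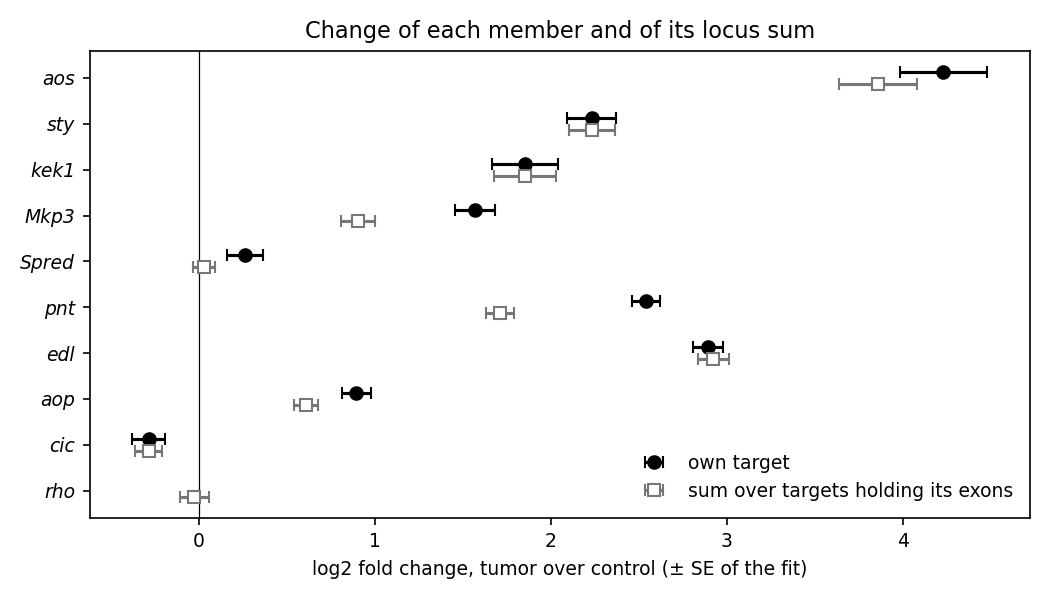
Log2 fold change, tumor over control, of each member's own target (filled circles) and of its locus sum (open squares), with bars for the SE (n = 2 in each genotype). The own value of rho is left out because control was listed at 0. Own and locus values are the same for sty and kek1, whereas for pnt they were 2.54 and 1.71 and for Mkp3 1.57 and 0.91.

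**Figure D4:**
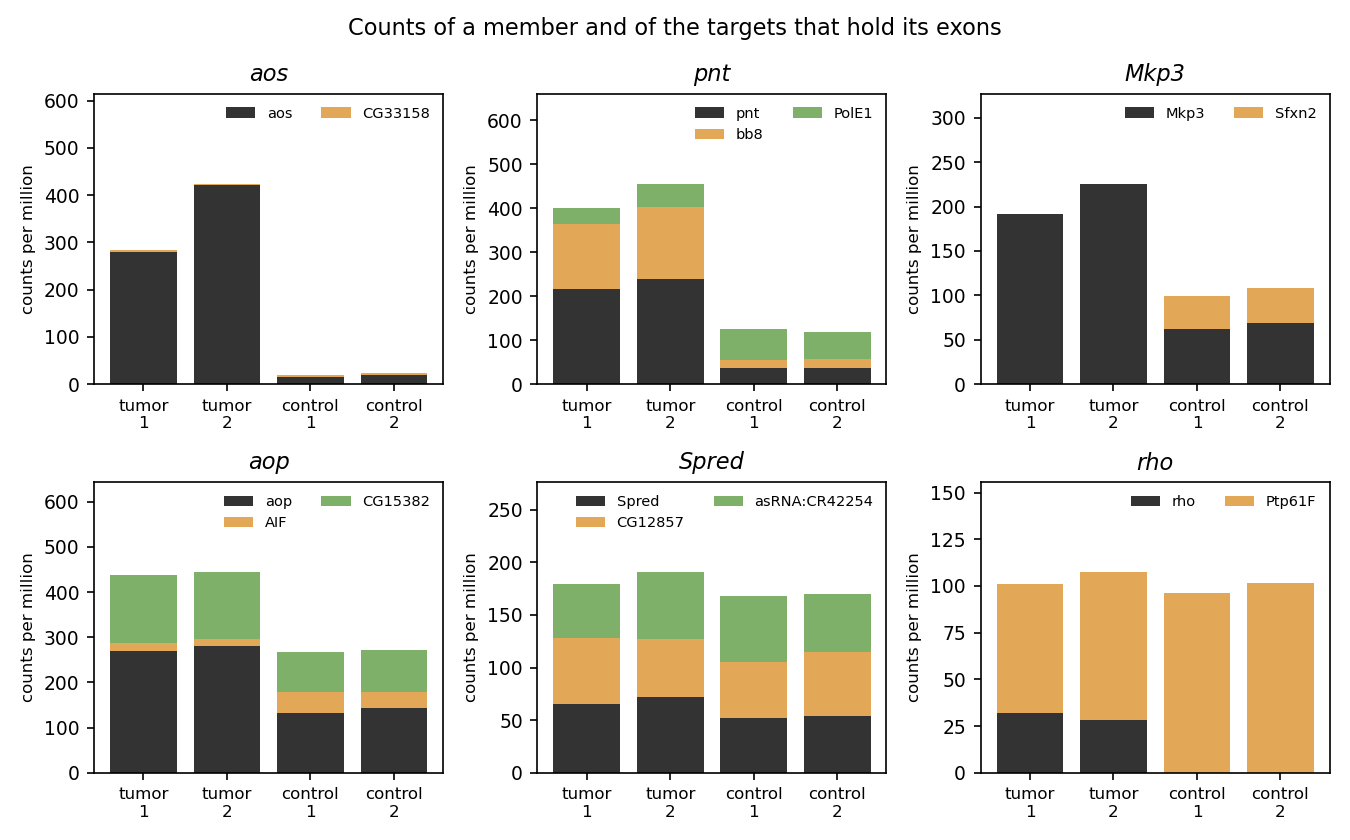
Unscaled CPM of 6 members (dark) and of other targets that hold their exons (colours) in each library, stacked. Partners with 20 counts or fewer in all are left out. The rho panel shows a sum near the same height in all libraries, with rho counts in the tumor libraries and none in control.

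The other genes of the pathway were taken from lists by role. Beside the counts of called genes in these lists stand the shares over all genes tested, 23.4% higher and 21.2% lower. Of 9 tested genes for ligands, their processing factors and the receptor, 1 rose and 3 fell, with a median log2 fold change of -0.13. Egfr itself had 5500 and 5136 counts in tumor, against 12421 and 15934 in control (log2 fold change -1.48 ± 0.08, edgeR adjusted p = 0.0016; locus sum -1.45). Both tumor libraries lay below both control libraries. The oocyte ligand gene grk fell by 0.69 ± 0.09 on the log2 scale (adjusted p = 0.0069 with edgeR), with a locus sum at 0.03, and is also on the germline list, 11 of whose 13 genes fell. stet, a rhomboid protease gene with a role in the germline, fell by 2.33 ± 0.47 (edgeR adjusted p = 0.022; locus sum -0.33), but it no longer passed when control 1, control 2 or tumor 1 was left out (edgeR adjusted p up to 0.10). The rhomboid gene rho-4 was the member of this list that rose, by 1.95 ± 0.12 on the log2 scale (adjusted p = 0.0018 with edgeR), and its locus sum stood at 0.81.

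Of 17 tested genes of the Ras-ERK cascade 8 rose and 1 fell, with a median of 0.29, and the driven Ras85D is among the 8. The number that rose was 4 without control 1, 4 without control 2 and 5 without tumor 2. The calls of Shc, ave and Dsor1 rest on listed zeros. Shc, an adaptor gene, was listed at 1106 and 1141 in tumor and at 0 in both control libraries, with a locus sum at 0.42. ave, a gene for an adaptor of the cnk complex, was listed at 712 and 1036 in tumor and at 0 in control once rounded, with a locus sum at -0.87. Dsor1 was listed at 0 in both tumor libraries and at 246 and 687 in control, with a locus sum at 0.60. With counts in both groups, the kinase gene Src42A rose by 0.83 ± 0.07 on the log2 scale (adjusted p = 0.0030 with edgeR; locus sum 1.51). The ERK gene rl, named here after its value was seen, differed by less than its error, at -0.0038 ± 0.0987 on the log2 scale (adjusted p = 0.98 with edgeR).

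On locus sums 5 of 11 other negative regulators rose and 5 fell, where 29.2% of all genes were higher and 28.4% lower. By their own counts 5 rose and 2 fell, with a median of 0.23. The number that rose was 2 without control 1, without tumor 1 or without tumor 2, and the number that fell was 0 without control 1, control 2 or tumor 1 and 1 without tumor 2. RasGAP1, for a GTPase-activating protein of Ras, had 13332 and 15313 counts in tumor, against 3803 and 4633 in control. The groups lay far apart, and RasGAP1 rose by 1.70 ± 0.13 on the log2 scale (adjusted p = 0.0026 with edgeR; locus sum 1.56). Sulf1, for a heparan sulfate sulfatase, rose by 2.12 ± 0.18 (edgeR adjusted p = 0.0033; locus sum 0.80). vap, for another Ras GTPase-activating protein, rose by 0.45 ± 0.08 (edgeR adjusted p = 0.016), while its locus sum passed the test in the other direction (-0.38, edgeR adjusted p = 0.0068). Ptp61F, the neighbour of rho, fell by 0.52 ± 0.10 (edgeR adjusted p = 0.017), and tay fell by 0.41 ± 0.10 (edgeR adjusted p = 0.030) with a locus sum at 0.07. The calls of vap and tay ended when any 1 of the 4 libraries was left out (edgeR adjusted p up to 0.12), and that of Ptp61F without control 1, control 2 or tumor 1 (up to 0.084). Under scaling on ribosomal protein genes the log2 fold changes of Ptp61F and tay turned to 0.13 and 0.24.

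Of the relatives of kek1, only 3 of 5 had enough counts for the test. kek2 rose, with 112 and 118 counts in tumor, against 11.1 and 7.01 in control (log2 fold change 3.56 ± 0.60, edgeR adjusted p = 0.014; locus sum 3.49). Its call ended when any 1 of the 4 libraries was left out (edgeR adjusted p up to 0.075). kek5 (-0.34 ± 0.11, edgeR adjusted p = 0.067) and kek6 (-0.54 ± 0.33, edgeR adjusted p = 0.24) did not pass, and both were named after their values were seen. Among 4 tested ETS factor genes beside pnt and aop, Ets21C rose. It had 4946 and 3680 counts in tumor, against 210 and 353 in control (log2 fold change 3.88 ± 0.25, edgeR adjusted p = 0.0020; locus sum 4.05). Per kilobase of exon, the ratio of pnt to Ets21C was 1.83 and 2.44 in tumor, against 6.30 and 4.66 in control.

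Of 14 tested nuclear partners and follicle targets of EGFR signalling 4 rose and 1 fell, with a median of -0.07. On locus sums 3 rose and 2 fell, where 29.2% of all genes were higher and 28.4% lower. The T-box genes mid and H15 rose by 1.75 ± 0.11 (edgeR adjusted p = 0.0021) and 3.12 ± 0.19 (edgeR adjusted p = 0.0018), with locus sums at the same values. Fas3, an adhesion gene of immature follicle cells, rose by 1.41 ± 0.11 (edgeR adjusted p = 0.0027). kay, named after its value was seen, rose by 0.43 ± 0.12 (edgeR adjusted p = 0.044), but its locus sum stood at 0.04. pip, the sulfotransferase gene that EGFR signalling represses in dorsal follicle cells, had 17.8 and 17.9 counts in tumor, against 81.4 and 86.7 in control, and fell by 2.29 ± 0.50 (edgeR adjusted p = 0.026; locus sum -0.84), a call that ended when any 1 of the 4 libraries was left out (edgeR adjusted p up to 0.14). mirr, another target in dorsal follicle cells, was named after its value was seen and did not pass (-0.26 ± 0.11, edgeR adjusted p = 0.12).

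**Figure D5:**
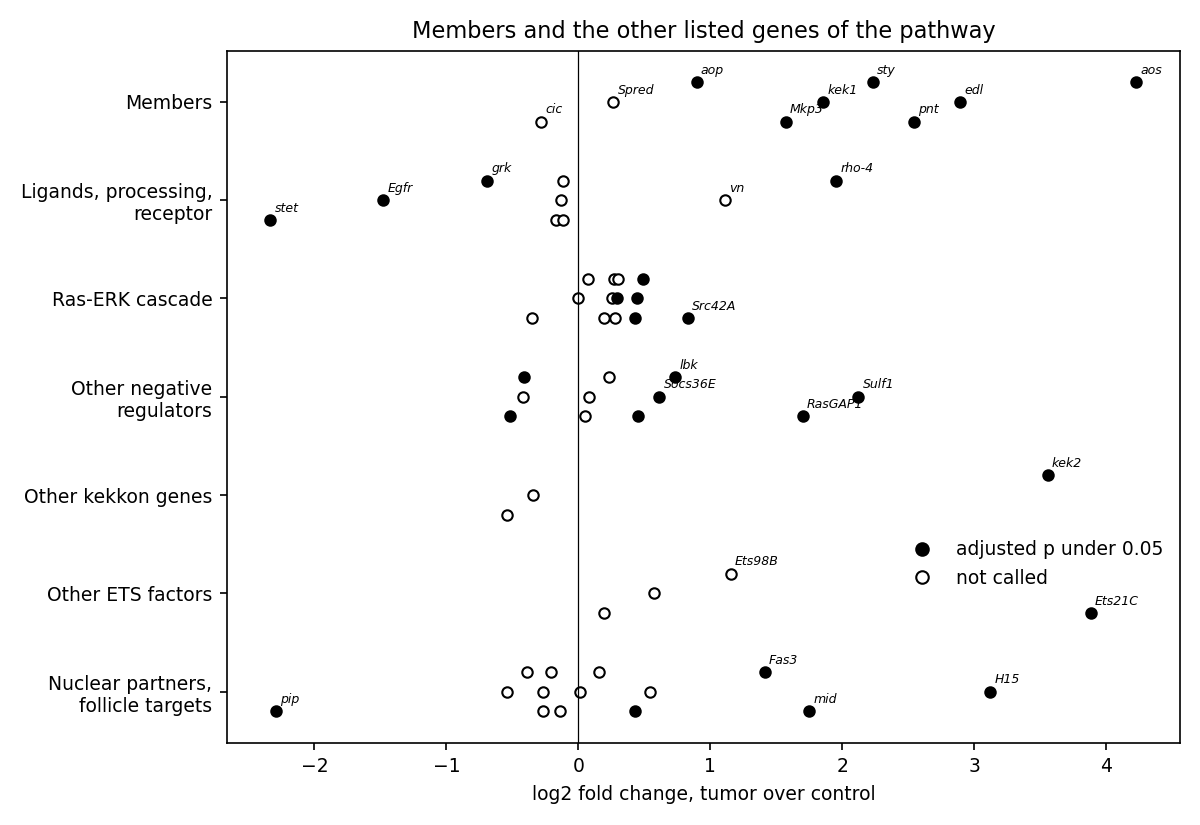
Log2 fold change, tumor over control, of the members and of the tested genes of each pathway list, with filled circles for an edgeR adjusted p under 0.05. Genes listed at 0 throughout a group and the driven Ras85D are left out, and genes beyond 0.6 in either direction and all members shown are labelled. The members reach 4.23 (aos), the receptor gene Egfr stands at -1.48 and the ETS factor gene Ets21C at 3.88.

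By a distance over the 4 centred log2 CPM, the genes most like aos among 1803 of similar average level were lncRNA:noe, Pxn and Dgp-1. Their distances were 0.303, 0.359 and 0.377 log2 units, and their log2 fold changes were 3.96, 4.37 and 3.85. Pxn, for peroxidasin, is on the hemocyte list. With 4 libraries in 2 groups, such a likeness is mainly a like fold change.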

How the data were processed

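All 4 libraries, 2 tumor and 2 control, were used, with group and replicate number taken from sample titles. The submitters' processing notes name kallisto as the quantifier, and its version and settings, the build and the annotation were not given in the sources used here. The authors deposited, per the file headers, estimated counts, which need not be whole, and TPM, which divides them by effective length, for each gene target. No per-sample column went unused. Of 17773 rows, 17668 matched a symbol and the Ensembl release 115 annotation of BDGP6.54, and for 99.3% of these the length equals the span plus 4000 bases. Locus sums could be made for annotated rows alone.

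Rounded estimated counts went into edgeR 4.0.16 in R 4.3.3 (filterByExpr, TMM, glmQLFit, glmQLFTest, group alone, two-sided, Benjamini-Hochberg over all genes). The SE is the log2 fold change divided by the root of the F value. The fit leaves 2 residual degrees of freedom and shares information on spread between genes. Locus sums were fitted with the same factors and library totals. Library totals of 41248098 to 50971937 counts make counting error small for most genes named, so the spread between libraries limits precision. Alternatives were other scalings, filters, DESeq2 1.42.0, limma 3.58.1 on counts (voom) and on log2(TPM + 1, 0.1 or 5), a threshold of 0.01, a replicate block and leaving out each library. Tables were joined and figures drawn with pandas 2.3.3 and matplotlib 3.10.9 in Python 3.11.15.

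The members and lists were chosen with earlier results of these data known. Of 116 list entries 114 matched a gene. Named genes are all members, the driven and driver genes, at most 3 called genes per list and direction with the smallest adjusted p, and the 3 genes nearest to aos; others are said to have been named afterwards. No sequence of the members was used here, and the motif and protein comparisons planned at the start were not run.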

Additional observations from a re-analysis of the deposited data

How the results depend on the processing

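The 8 higher calls among members held in 8 or 9 members under the 19 alternatives that keep single genes, Spred being the ninth on the TPM scale with pseudocounts of 1 and 0.1 (log2 fold change 0.49 and 0.51) and under scaling on ribosomal protein genes (0.92). On locus sums 7 were called, since rho stood at -0.025. The number of members called lower was 1 in place of 0, always cic, under upper-quartile factors, DESeq2 and locus sums, and cic stood at 0.36 under scaling on ribosomal protein genes, which moved the median of all genes to 0.67. Over all genes, 2202 were higher and 1989 lower. Scaling on ribosomal protein genes gave 4425 and 902, the threshold of 0.01 gave 992 and 851, and log2(TPM + 1) without a filter gave 1314 lower. Leaving out a library gave 1095 to 1495 higher and 760 to 1507 lower, and no member's call changed. With the replicate number as a block, 1533 genes were higher and 1305 lower, and the same 8 members were called higher. The numbers in the labels do not pair the samples, and deviations of same-numbered libraries correlated at -0.015 across genes. Depth limits kek2, pip and other genes with few counts, whereas the spread between 2 libraries limits the members. Division of reads between targets also limits members such as pnt, Mkp3 and rho, whose locus sums changed less than their own counts. For pnt, however, that sum holds all counts of PolE1, whose target shares only 40 exon bases with pnt.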
